A study of Homo sapiens with 21 samples.

Results

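The aldehyde dehydrogenase (ALDH) family was followed through A549 tumors grown in mice, by 10 genes with ALDH symbols: ALDH1A1, ALDH1A3, ALDH1B1, ALDH2, ALDH3A1, ALDH3A2, ALDH3B1, ALDH7A1, ALDH9A1 and ALDH18A1. These genes were chosen with earlier results of these data known. They are 10 of the 19 functional ALDH genes, and 10 of 60651 genes in the count table, where 25 symbols begin with ALDH. The remaining 6 symbols are pseudogenes or antisense genes, and their highest count in any library was 3. A549-Luc2 cells, a luciferase-carrying form of a human lung adenocarcinoma line, were implanted under the skin of female athymic nu/nu mice aged 6 to 8 weeks, and 10 mice per group were randomized at tumor volumes of 80 to 100 mm3. Control mice received the carrier by daily oral gavage (3% DMSO, 7% ethanol, 5% PEG400 and 85% corn oil), and the other mice received Oxy186 or Oxy210, both synthetic oxysterol analogs, at 50 mg/kg in the same way. RNA from 7 tumors per group was sequenced, giving 21 libraries, and human reads were counted per gene. All tumors came from a single cell line, so the libraries differ by host animal and tumor but not by donor.

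Most ALDH enzymes oxidize reactive aldehydes to carboxylic acids with NAD or NADP as the electron acceptor. Their substrates range from retinaldehyde, acetaldehyde and the aldehydes left by lipid peroxidation to intermediates of lysine, proline, carnitine and folate metabolism. A549 cells are known for high ALDH1A1 and ALDH3A1, and for a KEAP1 defect that leaves the transcription factor NRF2, which drives several detoxifying genes, constantly active.

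Total counts ran from 13787493 to 17865119 per library, and the group medians were 15082627 (Control), 15031344 (Oxy186) and 14992492 (Oxy210). The libraries differed in how counts depended on base composition. A GC slope described this for each library: the difference of a gene's log2 CPM (CPM is its count scaled to the library's total after TMM adjustment, the trimmed mean of M-values) from its mean over the 21 tumors, fitted per 10 points of exon GC percent. The slopes spanned -0.15 to 0.40 in Control, -0.51 to 0.49 in Oxy186 and -0.33 to 0.26 in Oxy210. Among the Oxy186 tumors, the slopes of replicates 1 to 4 (r1 to r4) were -0.30, -0.18, -0.51 and -0.47, and those of r5 to r7 were 0.08, 0.49 and 0.18. The study compared only r1 to r4 with Control after a principal component plot of these same libraries, so the distance of r1 to r4 from Control is not independent evidence of a treatment effect. Epithelial keratins marked the tumors as epithelial, with 51847 to 127913 counts of KRT8 and 30308 to 73819 of KRT18 per library. Defining markers of other cell types were at or near 0 on the human genes: COL1A2 had at most 1 count, VWF at most 2, KDR at most 1 and CD3E at most 1. Others were low rather than absent, such as COL1A1 at 256 to 1031 counts, LUM at 566 to 3348 and LYZ at 49 to 401. Only reads assigned to the human genome were kept, so these counts do not measure the mouse host cells in the tumors. The source of the COL1A1, LUM and LYZ counts was not tested. For human cells in bulk tumor RNA, fewer cells of a type and less RNA per cell cannot be told apart.

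Base composition differs within the family, and a pair of neighbouring genes shows it best. ALDH3A1 and ALDH3A2 lie near each other on chromosome 17 (GRCh38) and encode closely related enzymes. ALDH3A1 spans chr17:19737984-19748943 on the minus strand and ALDH3A2 spans chr17:19648136-19685760 on the plus strand. The coding sequence of ALDH3A1 holds 1359 bases at 60.2% GC and that of ALDH3A2 holds 1455 bases at 45.1% GC, with 67.3% identity over 1350 aligned columns. The most alike window of 90 coding bases within an exon is printed 5′ to 3′ on the coding strand, with the 18 differing bases in capitals. It lies at chr17:19742017-19742106 in ALDH3A1 and at chr17:19656472-19656561 in ALDH3A2.
ALDH3A1: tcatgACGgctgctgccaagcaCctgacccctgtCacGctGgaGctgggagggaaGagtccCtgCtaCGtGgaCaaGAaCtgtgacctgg
ALDH3A2: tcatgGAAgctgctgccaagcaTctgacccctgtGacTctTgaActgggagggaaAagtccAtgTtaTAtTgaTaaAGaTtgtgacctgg
Of the 18 differences, 15 put G or C in ALDH3A1 against A or T in ALDH3A2 and 2 do the reverse, so the windows hold 61.1% and 46.7% GC. Over all annotated exons, ALDH3A1 (60.24% GC) and ALDH3B1 (58.67%) were the most GC-rich of the 10 members. ALDH1A1 (40.88%), ALDH7A1 (43.37%), ALDH3A2 (44.55%), ALDH9A1 (45.09%) and ALDH2 (47.77%) were the least, with ALDH18A1 (49.77%), ALDH1A3 (51.45%) and ALDH1B1 (51.88%) between. The other members lie, in the same build, at chr15:100877714-100916626 (ALDH1A3), chr9:38392702-38398661 (ALDH1B1), chr12:111766887-111817532 (ALDH2) and chr11:68008578-68029282 (ALDH3B1) on the plus strand. On the minus strand are ALDH7A1 at chr5:126531200-126595362, ALDH9A1 at chr1:165662216-165698562 and ALDH18A1 at chr10:95605941-95656711.

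ALDH1A1 dominated the family in untreated tumors. It encodes a cytosolic retinaldehyde dehydrogenase that also oxidizes lipid-derived aldehydes, and lies at chr9:72900671-73080442 on the minus strand. Its raw counts in the 7 Control tumors ran from 75243 to 108458 with a median of 93389. This was 0.486% to 0.77% of all counts in a library, and 67% to 79.6% of the counts of the 19 functional ALDH genes. By median CPM in Control, ALDH1A1 ranked 10 among 60651 genes, and per kb of its canonical transcript it ranked 22 among the 60481 genes with a transcript length. ALDH3A1, which oxidizes aromatic and medium-chain aldehydes, ranked 111 by CPM and 117 per kb, and made up 6.63% to 15.4% of the family's counts.

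Levels of different genes were compared as CPM per kb of the Ensembl canonical transcript. The Control median was 2870 for ALDH1A1 (range 2280 to 3580) and 553 for ALDH3A1 (332 to 847), a ratio of 5.2. ALDH3B1, which acts on lipid aldehydes at membranes, followed at 145 (104 to 223), and ALDH3A2, the fatty aldehyde dehydrogenase of the endoplasmic reticulum, at 74.5 (69.7 to 89.6). ALDH18A1, the synthase that makes pyrroline-5-carboxylate for proline, stood at 43.6 (39.8 to 53.1). For each step in this order, all 7 Control libraries of the higher gene lay above all 7 of the lower. The next 3 genes were not separable: ALDH9A1, which serves carnitine synthesis, had a median of 20.8 (17.1 to 23.8), ALDH2, the mitochondrial acetaldehyde dehydrogenase, 18.7 (14.2 to 25.7), and ALDH7A1, which acts in lysine breakdown, 18.3 (14.1 to 20.1). ALDH9A1 exceeded ALDH2 in 4 of 7 libraries, and ALDH2 exceeded ALDH7A1 in 4 of 7. ALDH1B1, a mitochondrial enzyme close to ALDH2, lay below them at 9.27 (7.61 to 11.1), and ALDH1A3, the second retinaldehyde dehydrogenase measured, at 1.11 (0.893 to 1.72).

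**Figure D1:**
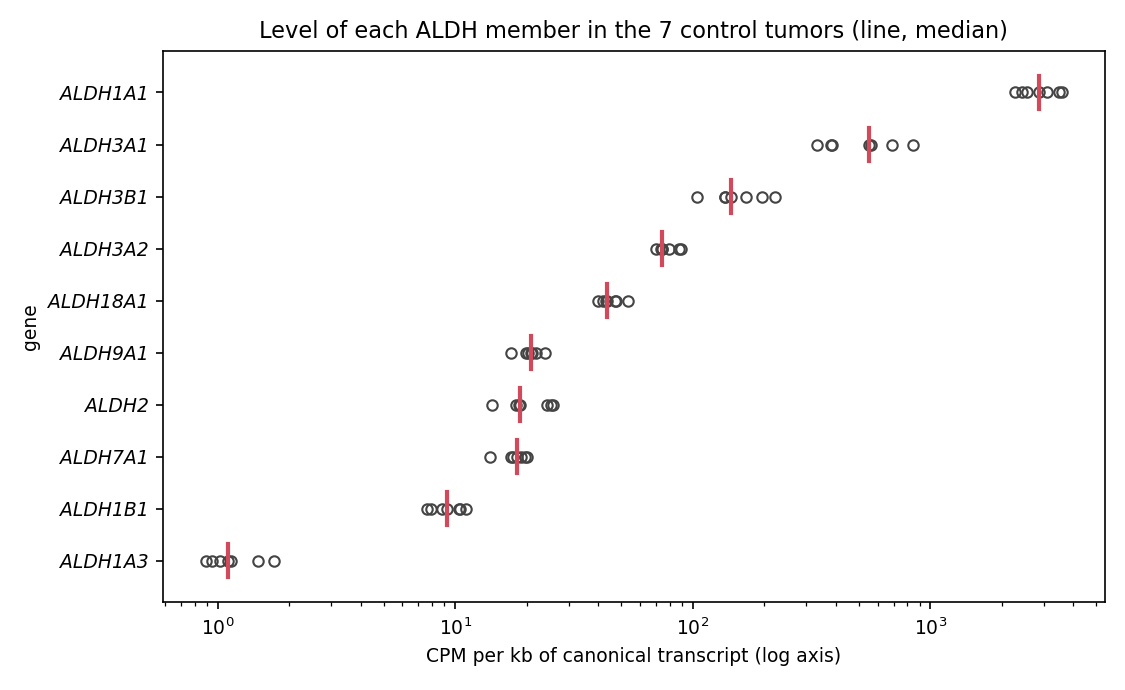
Level of each of the 10 ALDH members in the 7 Control tumors, as CPM per kb of canonical transcript on a log axis, with a circle per tumor and a line at the median. ALDH1A1 lies between 2280 and 3580, ALDH1A3 between 0.893 and 1.72, and ALDH9A1, ALDH2 and ALDH7A1 overlap.

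The length used matters for this order. With the union of all annotated exons in place of the canonical transcript, a choice added after the data were seen, the Control medians were 2120 for ALDH1A1, 234 for ALDH3A1 and 61.7 for ALDH3B1. By that length ALDH18A1 (38.9) passed ALDH3A2 (18), and ALDH7A1 fell to 4.86 and below ALDH1B1 (9), since the exon union is 15331 bases for ALDH3A2 and 17914 bases for ALDH7A1 against canonical transcripts of 3703 and 4765 bases.

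Most of the 9 family genes outside the 10 members lay below ALDH1B1. In Control, the medians per kb of canonical transcript were 12.2 for ALDH16A1, above ALDH1B1, 6.07 for ALDH5A1 (succinic semialdehyde dehydrogenase), 3.52 for ALDH4A1 (proline breakdown) and 3.49 for ALDH6A1 (valine breakdown). They were 1.64 for ALDH1L2 and 0.276 for ALDH1L1, both of folate metabolism, and 0.82 for ALDH8A1. ALDH1A2, the third retinaldehyde dehydrogenase, had 0 to 4 counts per library, and ALDH3B2 had 0 counts in all 21.

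Tumors of the same group were uneven for some members and close for others. The within-group SD of log2 CPM was 0.79 for ALDH3A1, at the 93.8 percentile of 16990 genes, where the median gene had 0.37. ALDH3A2 was among the steadiest genes at 0.13 (0.9 percentile), with ALDH18A1 at 0.17 (4.5), ALDH9A1 at 0.18 (7.5) and ALDH7A1 at 0.19 (8.1). ALDH1A1 (0.28), ALDH1B1 (0.28), ALDH1A3 (0.36), ALDH2 (0.37) and ALDH3B1 (0.40) lay nearer the median gene. The percentiles are over genes of all levels, and genes with few counts have a wider counting error. No comparison with genes of a like level was made.

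**Figure D2:**
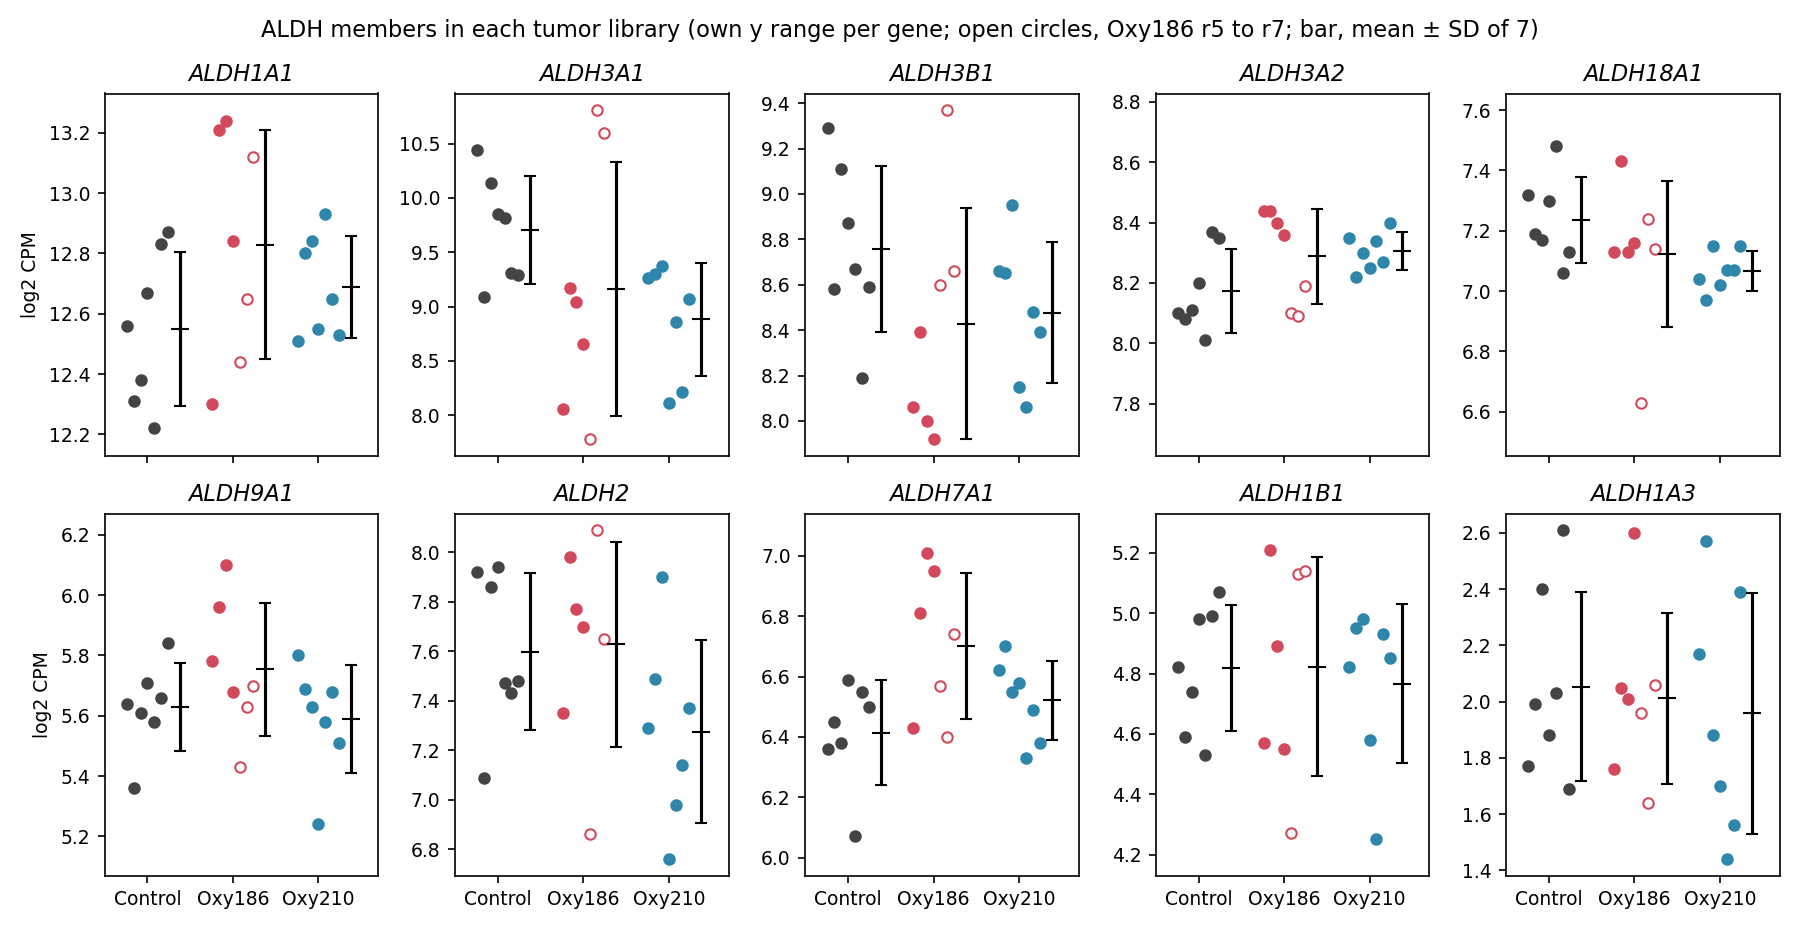
log2 CPM of the 10 members in each of the 21 tumors, by group, with the mean ± SD of the 7 tumors beside each group; each gene has its own y range, and open circles are Oxy186 r5 to r7. ALDH3A1 in Oxy186 spreads from 7.78 (r5) to 10.81 (r6), while ALDH3A2 stays between 8.01 and 8.44 in all tumors.

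The comparison of Oxy186 r1 to r4 with the 7 Control tumors asks how the tumors that the study took forward differ from untreated ones. ALDH3A1 and ALDH3B1 were lower and ALDH7A1 was higher, so 3 of 10 members passed (edgeR quasi-likelihood test, Benjamini-Hochberg adjusted p at or under 0.05 over 16852 genes). Of all genes tested, 19.7% passed, 15.0% lower and 4.73% higher. No member passed with a fold over 2 as well, a rule that 8.34% of all genes met. The median log2 fold change of the 10 members was 0.07, against 0.01 over all genes. For none of the 10 did the ranges of the groups stay apart, which they did for 11.6% of all genes.

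ALDH3A1 counts were 19045, 8048, 19927, 13194, 14428, 9440 and 8887 in Control r1 to r7 and 4416, 8142, 7434 and 6319 in Oxy186 r1 to r4. The highest of these Oxy186 tumors, r2, lay just above the lowest Control tumor. On the log2 CPM scale the Control mean was 9.70 ± 0.50 (SD, n = 7) and the Oxy186 r1 to r4 mean 8.73 ± 0.50 (SD, n = 4). The fitted log2 fold change was -0.99 (SE 0.27, 95% interval -1.60 to -0.39, edgeR adjusted p = 0.0181), which is 0.503 times the Control level. In the tumors left out, counts were 3310 in r5, 26474 in r6 and 21130 in r7. The lowest and the highest ALDH3A1 counts of all 21 tumors were thus both in Oxy186 tumors outside r1 to r4.

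ALDH3B1 log2 CPM ran from 8.19 to 9.29 in Control with a median of 8.67, and was 8.06, 8.39, 8.00 and 7.92 in Oxy186 r1 to r4. A single Control tumor, r6 at 8.19, fell within the Oxy186 range. Its log2 fold change was -0.70 (SE 0.19, 95% interval -1.13 to -0.27, edgeR adjusted p = 0.018). Values in r5 to r7 were 8.60, 9.37 and 8.66, within or above the Control range.

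ALDH7A1 ran from 6.07 to 6.59 with a median of 6.45 in Control, and was 6.43, 6.81, 7.01 and 6.95 in Oxy186 r1 to r4. Oxy186 r1 was inside the Control range and r2 to r4 were above it. The log2 fold change was 0.39 (SE 0.13, 95% interval 0.09 to 0.70, edgeR adjusted p = 0.0486).

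Each of the 3 calls was lost when certain libraries were left out. Without r1 the edgeR adjusted p of ALDH3A1 was 0.0518 and without r4 it was 0.0628, and ALDH3B1 had 0.0592 without r3 and 0.0745 without r4. ALDH7A1 had 0.0809 without r2, 0.154 without r3 and 0.111 without r4, so 0 of 10 members passed without r4, 1 without r3, and 2 without r1 or r2. The call of ALDH7A1 was also lost with limma voom (adjusted p = 0.0554) and without a filter on low counts (edgeR adjusted p = 0.122), and that of ALDH3A1 in a fit of all 21 libraries (edgeR adjusted p = 0.0685).

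ALDH1A1 was not called. Its log2 CPM was 12.30, 13.21, 13.24 and 12.84 in Oxy186 r1 to r4 against 12.22 to 12.87 (median 12.56) in Control. The log2 fold change was 0.37 (SE 0.20, 95% interval -0.08 to 0.82, edgeR adjusted p = 0.202). The retinaldehyde dehydrogenase ALDH1A3 had 0.05 (95% interval -0.49 to 0.58). The mitochondrial enzymes ALDH2 and ALDH1B1 had 0.08 (-0.30 to 0.47) and 0.00 (-0.36 to 0.35). In the later gene annotation used here, 32.15% of the ALDH1A3 exon bases lie opposite exons of its antisense gene ALDH1A3-AS1. Antisense reads may thus add to its count, which was not tested.

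ALDH3A2, ALDH9A1 and ALDH18A1 had log2 fold changes of 0.23, 0.25 and -0.03, with edgeR adjusted p of 0.166, 0.151 and 0.9. For ALDH3A2 the log2 CPM was 8.44, 8.44, 8.40 and 8.36 in Oxy186 r1 to r4, against 8.01 to 8.37 (median 8.11) in Control and 8.10, 8.09 and 8.19 in r5 to r7. Of these 4 tumors, r1 to r3 lay above every Control tumor, by a small margin. ALDH9A1 read 5.78, 5.96, 6.10 and 5.68 in r1 to r4 and 5.36 to 5.84 (median 5.64) in Control, so r2 and r3 were above the Control range. ALDH18A1 read 7.13, 7.43, 7.13 and 7.16 against 7.06 to 7.48 (median 7.19), with all 4 tumors inside the Control range.

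Of the 9 other family genes, 7 were tested and 2 passed, both lower with a fold over 2. ALDH16A1 counts were 336 to 726 (median 564) in Control and 257, 290, 129 and 153 in Oxy186 r1 to r4, with no overlap. Its log2 fold change was -1.46 (edgeR adjusted p = 0.00154). ALDH4A1, which oxidizes pyrroline-5-carboxylate to glutamate, had 104 to 207 counts (median 158) in Control and 96, 98, 50 and 66 in r1 to r4, with a log2 fold change of -1.05 (edgeR adjusted p = 0.00941). After scaling to depth the ranges of ALDH4A1 overlapped, at 2.74 to 3.82 and 1.88 to 2.82 log2 CPM. The 5 others had log2 fold changes of -0.36 (ALDH1L2), 0.10 (ALDH1L1), 0.24 (ALDH5A1), 0.03 (ALDH6A1) and 0.61 (ALDH8A1).

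**Figure D3:**
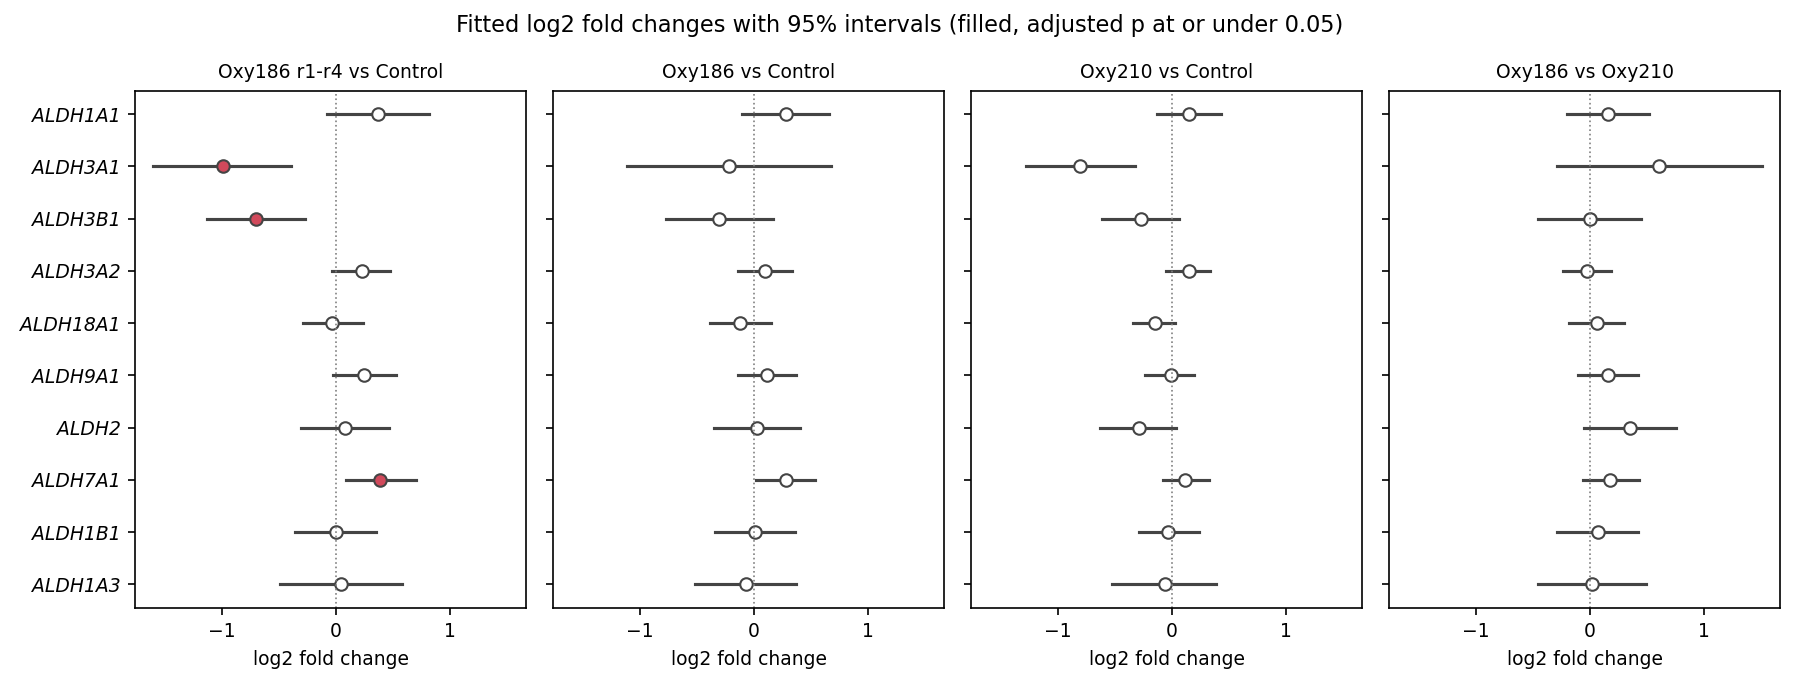
Fitted log2 fold change of each member with its 95% interval in the 4 comparisons; filled points have an edgeR adjusted p at or under 0.05. Filled points occur only for ALDH3A1 (-0.99), ALDH3B1 (-0.70) and ALDH7A1 (0.39) in Oxy186 r1 to r4 vs Control.

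The 4 ALDH genes that were lower were the most GC-rich of the 17 tested, with exon GC contents of 58.67% (ALDH3B1), 59.36% (ALDH4A1), 60.24% (ALDH3A1) and 61.43% (ALDH16A1), whereas ALDH7A1 has 43.37%. When the GC trend of each library was taken into the fit as an offset, 0 of 10 members passed, against 4.05% of all genes, and the smallest adjusted p among the members was 0.365. With these offsets the log2 fold change was -0.19 for ALDH3A1 (95% interval -0.66 to 0.29), -0.07 for ALDH3B1 (-0.35 to 0.21), 0.20 for ALDH7A1 (-0.06 to 0.46) and 0.14 for ALDH1A1 (-0.30 to 0.57). ALDH16A1 remained past the threshold at -0.62 (edgeR adjusted p = 0.0255), and ALDH4A1 did not (-0.41, adjusted p = 0.333). A change in GC-rich transcripts in the tumors and a GC dependence of library preparation cannot be told apart here.

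**Figure D4:**
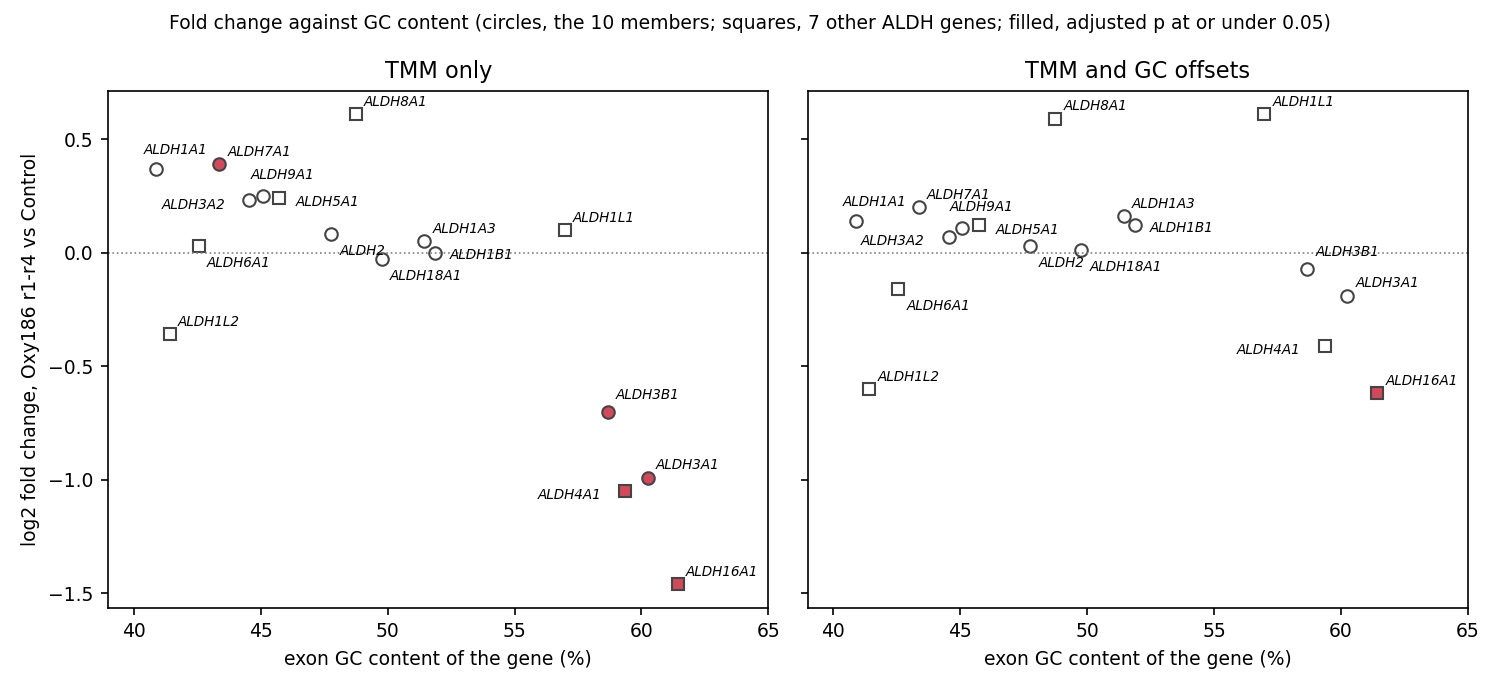
log2 fold change of Oxy186 r1 to r4 vs Control against exon GC content in percent for 17 ALDH genes, without (left) and with (right) GC offsets; circles are the 10 members, squares 7 other family genes, and filled symbols have an adjusted p at or under 0.05. Without offsets the genes at 58.67% to 61.43% GC lie between -0.70 and -1.46, and with offsets between -0.07 and -0.62.

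For 3 members the level moved with the GC slope of the library across tumors. The slope was fitted over genes of the same libraries, the members among them, so a GC-rich or GC-poor gene tends to follow it. The share of all genes with such a relation was not computed, so the p-values do not set these members apart from other genes. Over the 21 tumors, ALDH3B1 log2 CPM and the library's GC slope had a Pearson r of 0.93 (permutation p = 1e-05, the smallest that 100000 permutations give, adjusted over 10 members 0.0001) and a Spearman rho of 0.94 (permutation p = 1e-05, adjusted 0.0001). Without the 2 libraries farthest from the median slope r was 0.92. Within Control, Oxy186 and Oxy210, r was 0.82, 0.97 and 0.94 (n = 7 each, exact permutation p = 0.0234, 0.000397 and 0.00337). ALDH3A1 had r = 0.67 (permutation p = 0.00093, adjusted 0.0031) and rho = 0.77 (permutation p = 7e-05, adjusted 0.00035), with r = 0.73 without the 2 farthest libraries. Its within-group values were 0.86, 0.61 and 0.62 (n = 7 each, exact permutation p = 0.0155, 0.15 and 0.159), so within Oxy186 and Oxy210 alone the relation did not pass. ALDH3A2 went the other way, with r = -0.70 (permutation p = 0.0005, adjusted 0.0025), rho = -0.68 (permutation p = 0.00111, adjusted 0.0037) and r = -0.67 without the 2 farthest libraries. Within groups it had -0.58, -0.85 and -0.19 (n = 7 each, exact permutation p = 0.176, 0.0258 and 0.696). For the other 7 members the permutation p of r, adjusted, was 0.113 or more, with r = -0.35 (rho = -0.30) for ALDH1A1.

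**Figure D5:**
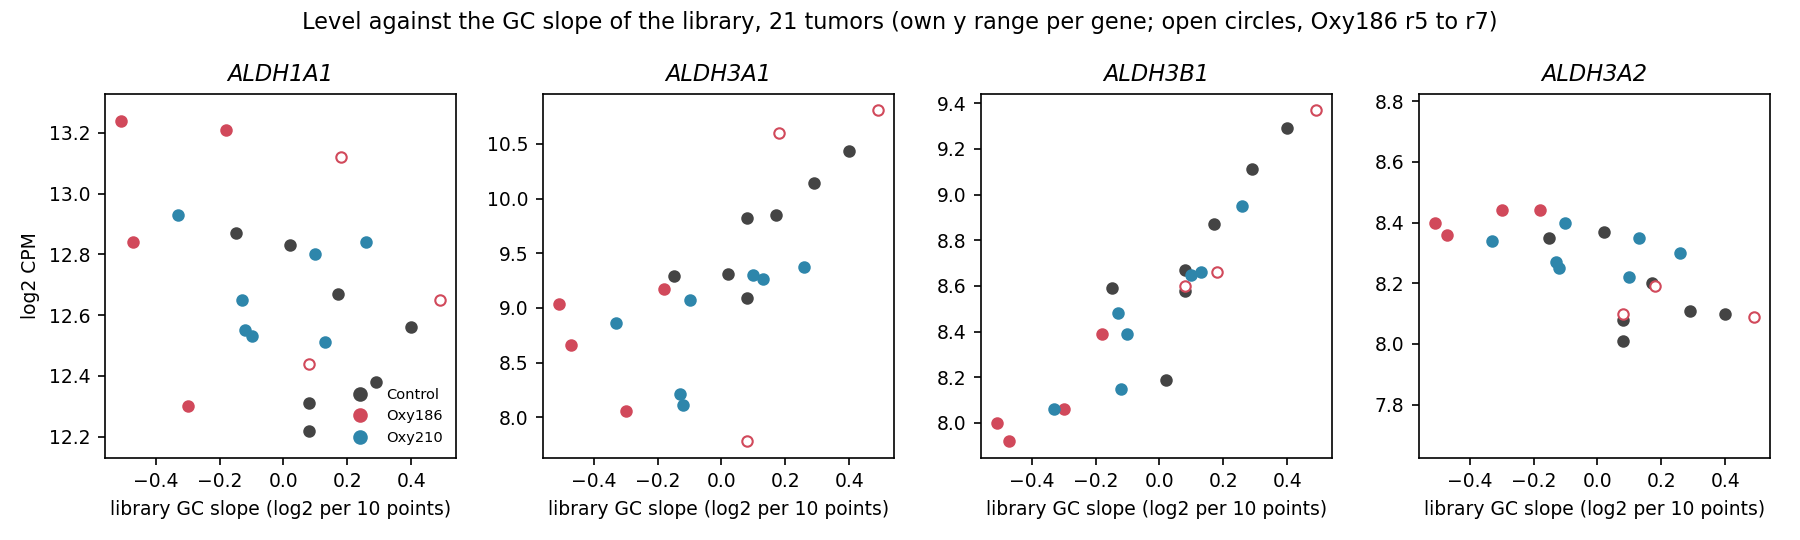
log2 CPM of ALDH1A1, ALDH3A1, ALDH3B1 and ALDH3A2 against the GC slope of the library (log2 change per 10 percentage points of exon GC) in 21 tumors coloured by group; open circles are Oxy186 r5 to r7. ALDH3B1 rises with the slope (r = 0.93) and ALDH3A2 falls (r = -0.70), while ALDH1A1 shows no clear trend (r = -0.35).

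With all 7 Oxy186 tumors against the 7 Control tumors, 0 of 10 members passed, and neither did any of 16291 genes tested (0% called). At an unadjusted p under 0.05, edgeR counted 618 genes and 1 member, ALDH7A1, whose log2 fold change was 0.28 (95% interval 0.02 to 0.54, edgeR adjusted p = 0.862). DESeq2 and limma voom also called 0 genes. ALDH1A1 had 0.28 (95% interval -0.10 to 0.66), with 12.30 to 13.24 (median 12.84) log2 CPM in Oxy186 and 12.22 to 12.87 (median 12.56) in Control. ALDH3A1 had -0.22 with a wide interval (-1.11 to 0.68), since its Oxy186 log2 CPM spread from 7.78 to 10.81 with a median of 9.04. Across the alternative fits its value ran from -0.59 to 0.01, with -0.56 by limma voom. The other 7 members lay between -0.30 (ALDH3B1) and 0.12 (ALDH9A1), and the median of the 10 was 0.02 against -0.01 over all genes.

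In the Oxy210 tumors the member farthest from Control was ALDH3A1. Its counts ran from 4079 to 9826 with a median of 8763, against 8048 to 19927 with a median of 13194 in Control. The log2 CPM of the 7 Oxy210 tumors ran from 8.11 to 9.37, and 3 Control tumors (9.09, 9.29 and 9.31) fell inside that range. The log2 fold change was -0.80 (SE 0.22, 95% interval -1.28 to -0.32), with an unadjusted p of 0.00187 in edgeR's test across all genes and an adjusted p of 0.246. Across the alternative fits its adjusted p ranged from 0.053 to 0.582, and with GC offsets its log2 fold change was -0.58. It was the single member with an unadjusted p under 0.05, and 0 of 10 passed, as did 0 of 16396 genes (0% called). At the unadjusted level edgeR counted 2270 genes, and DESeq2 called 92 after adjustment, with no member among them.

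For the remaining members under Oxy210, ALDH2 had a log2 fold change of -0.29 (95% interval -0.63 to 0.04) and ALDH3B1 -0.27 (-0.61 to 0.06). ALDH1A1 had 0.15 (-0.13 to 0.43), ALDH3A2 0.15 (-0.05 to 0.34) and ALDH7A1 0.12 (-0.08 to 0.33). ALDH18A1, ALDH1A3, ALDH1B1 and ALDH9A1 lay between -0.15 and -0.01. The median of the 10 members was -0.04 and that of all genes 0.01. All 3 comparisons with Control share its 7 tumors, so their values for a gene are not independent of each other. ALDH3A1 read -0.99 (r1 to r4), -0.22 (all Oxy186) and -0.80 (Oxy210), and ALDH1A1 read 0.37, 0.28 and 0.15.

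Oxy186 and Oxy210 were then set against each other, as a single pair of related compounds at the same dose and schedule. Among the 10 members 0 passed, as did 0 of 16361 genes (0% called), with 664 genes and 0 members at an unadjusted p under 0.05 by edgeR and 3 genes called by DESeq2. ALDH3A1 differed by 0.61 on the log2 scale, higher in Oxy186, with an interval from -0.29 to 1.51. Its value ran from 0.22 to 0.62 across the alternative fits and was 0.27 by limma voom. ALDH2 differed by 0.35 (-0.05 to 0.76): its log2 CPM ran from 6.86 to 8.09 (median 7.70) in Oxy186 and from 6.76 to 7.90 (median 7.29) in Oxy210. ALDH1A1 differed by 0.16 (-0.20 to 0.52). ALDH3B1 and ALDH3A2 differed by 0.00 (-0.45 to 0.45) and -0.02 (-0.23 to 0.19). These intervals leave room for differences of either sign, so the data do not show that the compounds act alike on these genes.

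ALDH1A1 and ALDH3A1 together held most of the family's counts in every group. In Control, ALDH1A1 held 67% to 79.6% (median 73.2%) and ALDH3A1 6.63% to 15.4% (median 10.3%). In Oxy210 the medians were 78.6% (75% to 83.4%) and 6.95% (3.71% to 7.86%), and in Oxy186 80.4% (65% to 84.4%) and 4.6% (3.17% to 18.2%). The ranges of the 3 groups overlapped for both genes, and no test was made on these shares.

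Genes of the pathways around the members were counted in Oxy186 r1 to r4 vs Control by the same edgeR test, in which 19.7% of all genes passed. Of 16 tested genes of retinoid metabolism and retinoid receptors, 1 was higher and 3 lower: RDH11, a retinal reductase, had a log2 fold change of 0.42, and the receptor genes RXRB and RARG had -0.88 and -1.11. Of 9 genes of proline and glutamate metabolism, 0 were higher and 3 lower, among them the glutamine transporter gene SLC1A5 (-1.24) and PYCR1 (-0.92), which serves proline synthesis. Of 6 tested genes of alcohol dehydrogenases and an aldehyde reductase, 1 was higher, ADH6 (0.71), and 0 were lower. Of 8 tested genes of lysine, carnitine and branched-chain amino acid metabolism, 2 were higher, AADAT (0.58) and HIBADH (0.39), and 0 lower. Of 16 genes of the NRF2 axis, 2 were higher, the glutathione synthesis gene GCLC (0.54) and NFE2L2 (0.56), which encodes NRF2, and 2 were lower, among them its target OSGIN1 (-1.12). Of 10 genes that handle lipid aldehydes and reactive oxygen, 0 passed, and the smallest adjusted p was 0.0546 (GSTA4, log2 fold change 0.44).

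The median log2 fold changes of these lists, in the same order, were -0.34, -0.58, 0.46, 0.41, 0.20 and 0.24, against 0.01 over all genes. With GC offsets the medians were 0.11, -0.09, 0.30, 0.21, 0.08 and 0.27, and of the genes named above as passing, AADAT alone kept its call: SLC1A5 read -0.43 (edgeR adjusted p = 0.111), PYCR1 0.15 (0.663), RXRB -0.41 (0.0876), RARG -0.44 (0.309), OSGIN1 -0.42 (0.388), NFE2L2 0.36 (0.117) and GCLC 0.38 (0.0555), and RDH11, ADH6 and HIBADH also no longer passed. The genes that passed with offsets included the retinoid carriers RBP4 (1.42) and CRABP1 (1.65), AADAT (0.46) and GPX4 (1.51), all higher. RBP4, CRABP1 and GPX4 were named after their values were seen. GPX4, at 67.3% exon GC, had 0.00 without the offsets. In the other comparisons 0 genes of these lists passed with edgeR.

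Over the 21 tumors, the genes whose log2 CPM was most like that of ALDH1A1 among 13607 genes were RFC3 (Pearson r = 0.91), SERBP1 (0.90), PCNA (0.89), SEPHS1 (0.89) and CDK5RAP2 (0.88). RFC3 and PCNA encode parts of the replication machinery. For ALDH3A1 they were TRIM35 (0.91), SDC1 (0.90), SEC13 (0.90), EIF3B (0.90) and YKT6 (0.89). These likeness values are descriptions over tumors that share library depth and GC trends. After each library's GC trend was removed, 2 of 5 remained among the 5 most like ALDH1A1 (RFC3 at 0.90 and SEPHS1 at 0.89) and 1 of 5 for ALDH3A1 (SDC1 at 0.89). Between ALDH1A1 and ALDH3A1 r was 0.13, and 0.55 with the GC trend removed. ALDH3A1 was closer to ALDH2 (0.73) and ALDH3B1 (0.71) than to ALDH1A1 (0.13), while ALDH1A1 was closer to ALDH7A1 (0.70) and ALDH9A1 (0.60). With the GC trend removed, this order held only in part. ALDH3A1 had 0.76 with ALDH2 but 0.40 with ALDH3B1, below its 0.55 with ALDH1A1. ALDH1A1 had 0.67 with ALDH7A1, 0.65 with ALDH1B1 and 0.56 with ALDH2, and 0.55 with both ALDH9A1 and ALDH3A1.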

How the data were processed

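Per the labels and the study's methods, the authors trimmed reads with Trimmomatic 0.39, aligned them with STAR 2.7.6a to a combined human (GRCh38.p13) and mouse (GRCm39) genome, kept human alignments, and deposited raw counts of uniquely mapped reads per gene from featureCounts (Subread 2.0.1). Strand setting was not given in the sources used here, so reads of overlapping antisense genes cannot be told apart; ALDH1A3 shares 32.15% of its exon bases with an antisense gene, and no other member shares more than 6.99% with another gene. The authors also deposited log2 CPM (TMM factors, prior count 2) of 16852 genes in Control and Oxy186 r1 to r4, which recomputation matched within 4.97e-14.

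From the counts of 21 libraries, edgeR 4.0.16 (filterByExpr, TMM, quasi-likelihood test, R 4.3.3) was fitted on all genes of each comparison, with Benjamini-Hochberg adjustment. Each SE is the size of the log2 fold change divided by the square root of the test's F value. The 95% intervals use a t quantile on the number of libraries less the number of groups. They are approximate and need not match the p-value of the edgeR test. The study used limma voom. That test (limma 3.58.1), DESeq2 1.42.0, other scalings, filters, a replicate block, left-out replicates, and offsets of a spline in exon GC (4 degrees of freedom) were alternatives. Scripts were tested on simulated data. No library pair of a group agreed within sampling noise (smallest chi-square per degree of freedom 12.1), but no label says whether replicates are separate in more than the tumor, so p-values measure only the spread between these samples. Exon lengths and GC come from GENCODE on GRCh38 in a later release than the authors' own. Named genes are the 10 members, the 9 other functional family genes, at most the 3 genes of each pathway list with the smallest unadjusted p in Oxy186 r1 to r4 vs Control and any that pass in another comparison, and the 5 genes most like ALDH1A1 and ALDH3A1. Members and lists were chosen with earlier results of these data known. A gene of the pathway lists is not reported here by name.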

Additional observations from a re-analysis of the deposited data

Results flagged for a closer look

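In 5 of 51 groups of 7 tumors, over 17 family genes, the tumor at an end of the range stood apart from the rest by Dixon's criterion. Chance gives about 2.55 for normal and independent values. The share of all genes that met this rule was not computed, so the count cannot be read as particular to the family. Oxy186 r5 was low in ALDH18A1, at 6.63 log2 CPM against 7.13 for the next tumor, and in ALDH1L1, at -2.33 against -0.33, where it had 1 count. Oxy186 r4 was high in ALDH1A3, at 2.6 log2 CPM with 2.06 next. Control r5 was high in ALDH1L2, at 4.52 with 3.73 next. Oxy210 r4 was low in ALDH8A1, at -0.19 with 1.11 next. The cause of these values was not tested.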

How the results depend on the processing

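In Oxy186 r1 to r4 vs Control, 3 of 10 members and 3323 of all genes (797 higher, 2526 lower) passed. With GC offsets this was 0 and 683 (302 higher, 381 lower), with the replicate block and GC offsets 0 and 68, and with a fold over 2 as well 0 and 1406. Leaving out each of r1 to r4 gave 0 (without r4) to 2 members and 1835 (without r4) to 3149 genes, with 1875 without r3. DESeq2 called 4385 genes (1535 higher, 2850 lower), and the fit of all 21 libraries 4004. Without a filter the split was 418 higher and 2627 lower. In Oxy210 vs Control the gene count rose from 0 to 92 with DESeq2, 11 without a filter and 2 with the replicate block. In Oxy186 vs Oxy210 it rose from 0 to 3 with DESeq2 and to 1 without a filter, with all 21 libraries, with GC offsets, and with the replicate block and GC offsets. The 5 genes most like ALDH1A1 kept 2 members with the GC trend removed and 2 with Spearman, and those most like ALDH3A1 kept 1 and 1. No label states that the replicate numbers pair the tumors. Same-numbered deviations from the group means had correlations of -0.54 to 0.41. Pairs above 0.1 numbered 4 of 7 in Oxy210 vs Control and 1 of 7 in Oxy186 vs Oxy210. They numbered 0 of 7 in Oxy186 vs Control and 0 of 4 in Oxy186 r1 to r4 vs Control. The replicate block alone gave 2 members and 2373 genes (272 higher, 2101 lower) there.

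Where the main value did not round to 0, values of members not called in that comparison changed sign near 0 in some fits. In Oxy186 r1 to r4 vs Control these were ALDH1A3 (-0.11 without r4, and up to 0.16 without another of the 4), ALDH2 (-0.01 with the replicate block, -0.05 with the block and GC offsets, -0.01 without r2 and up to 0.19 without another) and ALDH18A1 (0.01 with GC offsets, 0.03 with the block and GC offsets, 0.01 without r3, 0.04 without r4, and down to -0.10 without another). With all Oxy186 tumors they were ALDH3A1 (0.01 with GC offsets) and ALDH1B1 (-0.02 with limma voom and with the replicate block). In Oxy210 vs Control they were ALDH9A1 (0.04 by library size alone) and ALDH1B1 (0.03 by library size alone, 0.01 with GC offsets, 0.02 with the block and GC offsets), and in Oxy186 vs Oxy210 ALDH1A3 (-0.02 by library size alone). Of the refitted member fold changes, 407 were scored as keeping direction and side of the threshold, 17 lost the call and 16 changed sign. No change of sign was scored where a value rounded to 0. ALDH1B1 in Oxy186 r1 to r4 vs Control was such a case, at -0.02 to 0.22 across the alternative fits. With a tumor left out it ran from -0.16 to 0.12. ALDH3B1 in Oxy186 vs Oxy210 was another, at -0.06 to 0.05 across the alternative fits. All 20 alternative Control levels stayed within 1 SD. The causes were not tested. At these depths ALDH1A3, at 41 to 93 counts, has the widest counting error of the members.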
